A study of Mus musculus with 6 samples.

Results

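The matrix metalloproteinases (MMPs), the ADAM and ADAMTS proteases and their TIMP inhibitors were examined in mouse 3T3-L1 preadipocytes. Members were the protein-coding rows of the deposited table whose symbol is Mmp, Adam, Adamts or Timp followed by a number and at most a letter. This gave 57 genes of the 21436 in the table (16207 of them protein-coding), with 20 MMP, 19 ADAM, 14 ADAMTS and 4 TIMP genes. The 3T3-L1 line is a wild-type mouse embryonic fibroblast line that can turn into adipocytes. In the co-culture group (3 libraries), the cells lay beneath human umbilical cord mesenchymal stem cells, which were kept in the upper chamber of a Transwell with 0.4 µm pores. In the alone group (3 libraries) the upper chamber held no cells. The cells of all 6 libraries spent 72 h in the same adipogenic medium. It held 2 µM rosiglitazone, 1 µM dexamethasone, 0.5 mM IBMX, 10 mg/L insulin and 10% serum. The comparison asks how the human cells, acting across the membrane, altered expression in the mouse cells.

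MMPs are zinc proteases that cut collagens and other proteins of the extracellular matrix, and most are secreted as inactive precursors. ADAMs are membrane-bound relatives, several of which release growth factors, cytokines and receptors from the cell surface. ADAMTS enzymes are secreted proteases that cut matrix proteoglycans or trim procollagens. TIMPs bind and block these proteases. Growing fat tissue remodels its matrix, and MMP14 in particular is known from mouse work as the collagenase that lets adipocytes enlarge within collagen.

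All levels are in FPKM, fragments scaled to gene length and library size, so they can be compared between genes. Library totals recovered from the table were 29603755 to 37612585 reads in co-culture and 36119750 to 38357563 reads alone. Fibroblast markers were high in both groups, with Vim at 1346 ± 17.7 FPKM in co-culture and 1202 ± 61.8 FPKM alone, and Col1a2 at 823 ± 11.5 and 774 ± 7.50 FPKM in the same order (SD, n = 3 each). The adipocyte markers were near 0, with 12 reads of Plin1 and 1 read of Cfd in each group, and 0 reads of Adipoq in co-culture against 1 alone. The cultures thus carried fibroblast rather than mature adipocyte transcripts. Alone replicate 1 lay farthest from the other libraries of its group, with a mean chi-square per gene of 8.80 and 11.2 against them, where the other pairs within a group had 3.33 to 4.58. In such bulk samples, fewer cells of a type and less RNA per cell cannot be told apart. The labels do not state that replicates came from separate cultures, and a p-value then covers just the variation among these libraries, technical or not.

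Of the 57 genes, 28 averaged 1 FPKM or more across the 6 libraries and were tested, and 29 lay below that filter. Among the 28, 6 were higher and 7 lower in co-culture at an adjusted p below 0.05 (limma on log2(FPKM + 1), Benjamini-Hochberg over all 10055 tested genes). Those shares, 21.4% and 25.0%, stand beside 13.9% called higher and 17.9% called lower among all tested genes (31.8% together). Adamts1, Adam17, Mmp3, Adamts5, Mmp28, Adamts4 and Adam15 fell, and Timp2, Mmp19, Adam23, Mmp14, Adamts10 and Mmp2 rose. The changes were small. The median size of the log2 change was 0.21 over the 13 called genes and 0.23 over all called genes, and on this scale only Adamts1 moved by more than 0.5, since the added 1 reduces the change of the low gene Mmp3. The median log2 change of the 28 was 0.05, against −0.00 over all tested genes. Together the MMPs summed to 1812, 1814 and 1795 FPKM in co-culture and to 1616, 1683 and 1658 FPKM alone, and the ADAMTS genes to 257, 263 and 261 FPKM in co-culture and 327, 344 and 349 FPKM alone. The 3 co-culture libraries did not overlap the 3 alone libraries for any of the 13, and 17 of the 28 had no overlap, where 46.1% of all tested genes had none. Adamts1, Adam17, Mmp3, Timp2, Mmp19 and Adam23 were called under every alternative setting in which they had a value. Mmp3 had none with the filter at 5 FPKM or without alone replicate 3, where it lay below the filter.

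The counts moved with the settings. The higher genes numbered 3 without co-culture replicate 2. With no filter, 4 of the 57 were called higher and 4 lower, beside 4.37% and 5.84% of all 21436 genes (10.2% together). With the filter at 5 FPKM, 5 of the 18 genes left were called higher and 4 lower, beside 14.5% and 21.0% (35.5% together). By limma-voom on the reads recovered from the FPKM values, 7 were called higher and 7 lower, beside 14.8% and 19.0% (33.8% together).

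**Figure D1:**
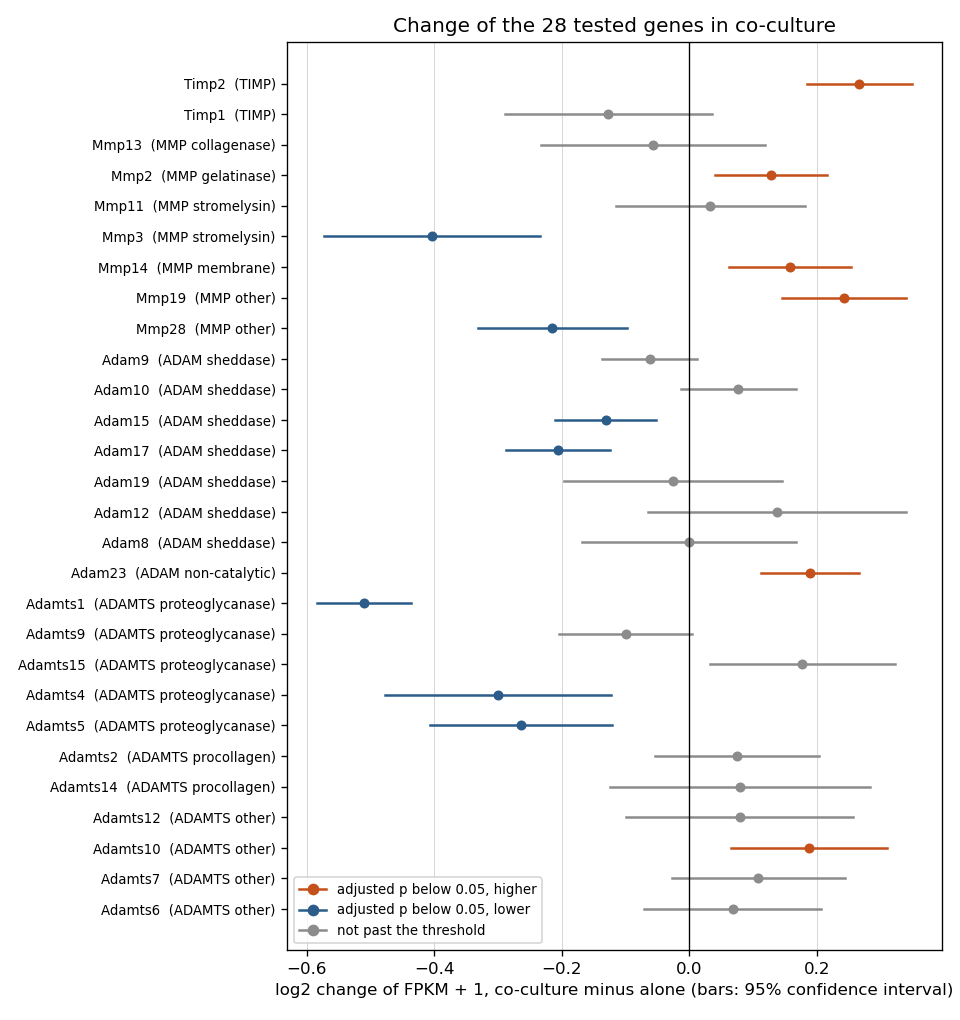
Log2 change of FPKM + 1, co-culture minus alone, for the 28 tested genes, grouped by role; points are limma estimates and bars 95% confidence intervals, each unadjusted. Adamts1 at −0.51 and Mmp3 at −0.40 lie farthest to the left, and Timp2 at 0.27 and Mmp19 at 0.24 farthest to the right.

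The mean levels of the 28 ran from 1.05 FPKM (Mmp3) to 1429.9 FPKM (Mmp2), and a few genes made up most of the sum. Mmp2 held 53.7%, 52.3% and 52.9% of the summed FPKM of all 57 genes in the co-culture libraries, against 50.9%, 50.8% and 50.7% in the alone libraries. Mmp2 and Mmp14 together held 96.3% to 96.6% of the summed MMP FPKM in co-culture and 96.2% to 96.3% alone. By mean FPKM over the 6 libraries, Mmp2 ranked 32 among the 21436 genes, Mmp14 ranked 219, Adamts1 229, Adam23 231 and Timp2 270.

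**Figure D2:**
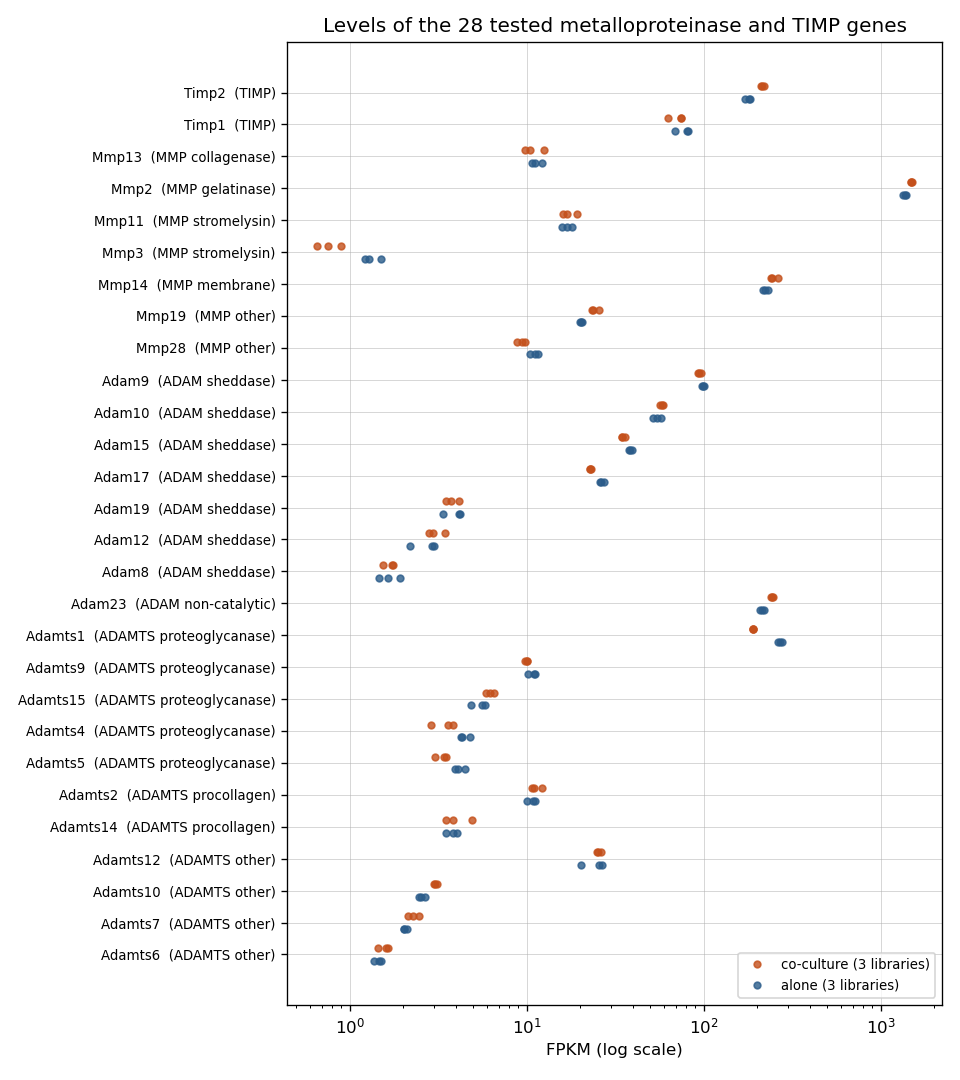
FPKM of the 28 tested genes in each library on a log scale, co-culture above alone for each gene, 1 point per library. Mmp2 stands far to the right of the others at 1337 to 1509.7 FPKM, followed by Mmp14, Adam23, Adamts1 and Timp2, and the groups separate most for Mmp3 and Adamts1.

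Among the inhibitors, Timp2 rose and Timp1 was not called. Timp2 (chromosome 11, 118301061 to 118355411, mm10) blocks most MMPs and also bridges MMP14 to the MMP2 precursor, which MMP14 then cuts into the active enzyme. It was at 212, 219 and 215 FPKM in co-culture replicates 1 to 3, against 171, 184 and 181 FPKM in alone replicates 1 to 3. Every co-culture library lay above every alone library, the ratio of means was 1.20 (215 ± 3.56 and 179 ± 6.75 FPKM, SD, n = 3 each), and the log2 change was 0.27 (SE 0.04, limma adjusted p = 4.91e-04). Timp1, the inhibitor induced by many cytokines, was at 63.3, 74.3 and 74.2 FPKM in co-culture and at 81.8, 80.7 and 69.0 FPKM alone. These groups overlapped and the log2 change of −0.13 was not past the threshold (SE 0.07, adjusted p = 0.213), although the adjusted p was 0.0462 without alone replicate 3. Timp1 stood at 0.299 to 0.346 of the Timp2 level in co-culture and at 0.382 to 0.478 of it alone. These ratios of FPKM did not overlap, but they were not tested.

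The other pair of inhibitors was scarce. Timp3, which binds to the matrix and also inhibits ADAM17, was at 0.671, 0.659 and 0.544 FPKM in co-culture and at 0.529, 0.467 and 0.535 FPKM alone, from 304 and 269 reads in all. Its groups did not overlap, but the change was not past the threshold in the fit without a filter (log2 change 0.10, adjusted p = 0.212). Timp4 was at 0.333, 0.452 and 0.300 FPKM in co-culture and at 0.349, 0.489 and 0.434 FPKM alone, with overlap (adjusted p = 0.577). Timp3 and Timp4 share 1733 and 90 exon bases with the synapsin genes Syn3 and Syn2 on the opposite strand, which were at 0.000279 and 0.743 FPKM.

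The enzyme pair that TIMP2 joins rose as well, with smaller estimates, but the difference from the Timp2 change was not tested. Mmp2, gelatinase A, cuts denatured and basement membrane collagens. It was at 1509.7, 1483 and 1488 FPKM in co-culture and at 1337, 1388 and 1374 FPKM alone. The 3 co-culture values were the highest, and the log2 change was 0.13 (SE 0.04, adjusted p = 0.0310, ratio of means 1.09). Mmp14, the membrane-anchored collagenase, was at 241, 264 and 243 FPKM in co-culture and at 218, 232 and 221 FPKM alone, again without overlap (log2 change 0.16, SE 0.04, adjusted p = 0.0186, ratio 1.12). Both calls were fragile. The adjusted p of Mmp2 was 0.131, 0.0809 and 0.103 without co-culture replicates 1, 2 and 3, and 0.0737 and 0.0538 without alone replicates 2 and 3, and it was 0.106 with the replicate number as a block. That of Mmp14 was 0.0690 without co-culture replicate 2 and 0.0539 without alone replicate 3.

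Within each library the Timp2 level was 0.140, 0.148 and 0.144 of the Mmp2 level in co-culture, against 0.128, 0.133 and 0.132 alone. Relative to Mmp14 it was 0.877, 0.827 and 0.882 in co-culture, against 0.783, 0.795 and 0.819 alone. Both ratios of FPKM were thus higher in every co-culture library than in any alone library, by a narrow margin for Mmp14 (0.827 against 0.819). These ratios were not tested, and both carry the Timp2 rise given above. By level, 46.1% of all tested genes had no overlap between the groups.

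**Figure D3:**
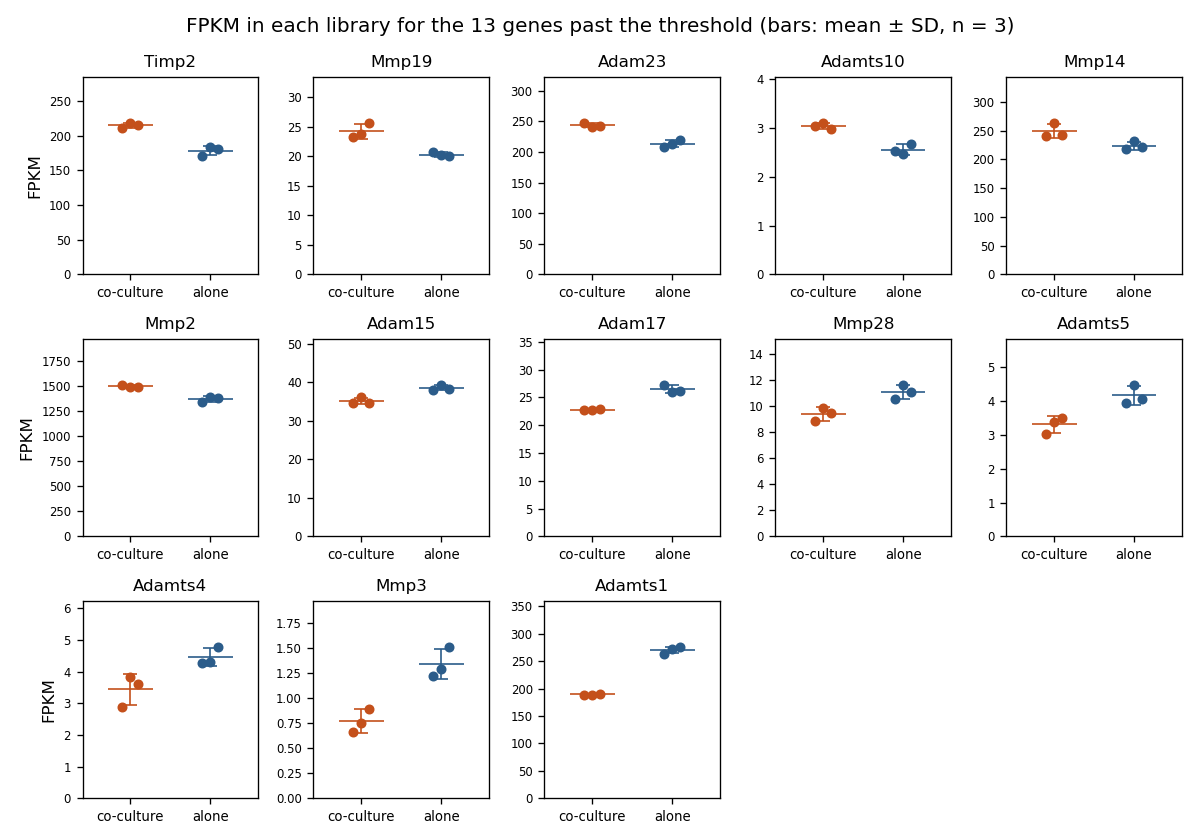
FPKM in each library for the 13 genes past the threshold, co-culture on the left and alone on the right of each panel, with the mean ± SD (n = 3) and an axis from 0. The panels run from the largest log2 rise (Timp2) to the largest log2 fall on log2(FPKM + 1) (Adamts1), and the groups overlap in none of the 13.

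The remaining tested MMPs moved in both directions. Mmp19, a secreted MMP that cuts basement membrane proteins, was at 23.3, 23.7 and 25.7 FPKM in co-culture and at 20.7, 20.2 and 20.0 FPKM alone (log2 change 0.24, SE 0.04, adjusted p = 0.00219, ratio 1.19). Mmp28, known as epilysin, was at 8.84, 9.86 and 9.47 FPKM in co-culture and at 10.5, 11.6 and 11.1 FPKM alone (log2 change −0.21, SE 0.05, adjusted p = 0.0114, 1.18-fold lower). Neither pair of groups overlapped. Mmp11, or stromelysin 3, was at 17.4 ± 1.71 FPKM in co-culture and 17.0 ± 1.10 FPKM alone, and Mmp13, the main collagenase of rodents that cuts fibrillar collagen, was at 10.9 ± 1.45 and 11.4 ± 0.775 FPKM in the same order. Both overlapped and neither was called (log2 change 0.03 with a 95% interval of −0.12 to 0.18 and adjusted p = 0.737, and −0.06 with an interval of −0.23 to 0.12 and adjusted p = 0.619).

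Mmp3, stromelysin 1, cuts proteoglycans and other matrix proteins and can activate other MMP precursors. It was at 0.656, 0.753 and 0.893 FPKM in co-culture, from 146 reads, and at 1.22, 1.29 and 1.51 FPKM alone, from 271 reads. All 3 co-culture values lay below the lowest alone value, the mean was 1.74-fold lower and the log2 change was −0.40 (SE 0.08, adjusted p = 0.00276). With pseudocounts of 0.1 and 0.01 in place of 1, the log2 change was −0.73 and −0.80, and by limma-voom on recovered reads it was −0.79. Mmp3 passed the filter through the alone libraries only, since its co-culture mean of 0.767 FPKM lies below 1. It was also called with all genes tested, and its adjusted p ranged from 0.00199 to 0.0280 over the 13 alternative settings that gave a value. With the filter at 5 FPKM and without alone replicate 3, Mmp3 lay below the filter and was not tested.

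Mmp3 and Mmp13 lie in a gene cluster on chromosome 9 (mm10), where 8 measured MMP genes follow each other over 309 kb without another protein-coding RefSeq gene among them. In order along the chromosome they are Mmp13, Mmp12, Mmp1b, Mmp3, Mmp1a, Mmp10, Mmp8 and Mmp27. Mmp13, at one end (7272514 to 7283333), and Mmp3, in the middle (7445822 to 7455975), passed the filter, with 6509 and 417 reads over the 6 libraries. The other 6 had between 4 and 30 reads each. Mmp8 and Mmp27 had 15 and 30, and the macrophage elastase gene Mmp12, the interstitial collagenase genes Mmp1a and Mmp1b and the stromelysin 2 gene Mmp10 had 4 or 5. Strong differences in level thus stood side by side within this cluster in both groups.

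Most promoters of this cluster carry letters that most others lack. Many MMP genes are known to be induced through AP-1, a dimer of Fos and Jun proteins that binds TGAGTCA, whose other strand reads TGACTCA, close to a TATA box. In the 250 bases before the start, 1 of these AP-1 strings was found at 6 of the 9 RefSeq starts of the cluster (Mmp12 has 2 starts), at 1 of the 31 starts of other members (Adam19), and at 4.46% of all 32851 starts in the RefSeq table (GRCm38.p6). The string TATAAA or its complement TTTATA was found at 5 of the 9, and at 12.4% of all starts. Neither string was found at Mmp8, at Mmp27 or at the other start of Mmp12, so the strings are not common to the whole cluster. A start was listed for 36 of the 57 genes. The following stretches are the 100 bases just before the RefSeq start, 5′ to 3′ on the gene's strand, with AP-1 and TATA strings in capitals. They set the cluster gene that fell (Mmp3) beside an expressed one that was not called (Mmp13), 2 that were barely detected (Mmp10, Mmp1a), and Adamts1, the called member with the smallest p.
Mmp3: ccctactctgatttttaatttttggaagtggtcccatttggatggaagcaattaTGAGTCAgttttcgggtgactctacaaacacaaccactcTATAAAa
Mmp13: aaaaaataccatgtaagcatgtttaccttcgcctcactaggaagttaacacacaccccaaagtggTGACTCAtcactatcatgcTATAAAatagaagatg
Mmp10: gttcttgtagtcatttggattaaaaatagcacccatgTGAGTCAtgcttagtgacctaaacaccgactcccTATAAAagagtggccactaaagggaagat
Mmp1a: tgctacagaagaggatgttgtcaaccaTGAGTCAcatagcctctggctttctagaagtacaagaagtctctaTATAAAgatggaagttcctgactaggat
Adamts1: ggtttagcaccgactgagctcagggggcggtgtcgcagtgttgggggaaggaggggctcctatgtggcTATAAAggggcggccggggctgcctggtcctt

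The AP-1 string begins 46 bases before the start of Mmp3, 35 before that of Mmp13, 63 before that of Mmp10 and 73 before that of Mmp1a. All 4 printed cluster genes therefore carry both strings, while their levels ran from 10.9 FPKM (Mmp13) down to 0.00511 FPKM (Mmp10) in co-culture. Adamts1 has a TATA string and no AP-1 string in the 250 bases searched. In mm10 the printed stretches are chr9:7445722-7445821 for Mmp3, chr9:7272414-7272513 for Mmp13, chr9:7502242-7502341 for Mmp10 and chr9:7464041-7464140 for Mmp1a, all on the plus strand, and chr16:85803114-85803213 on the minus strand for Adamts1. A match of letters is a description of the sequence, not a measured binding site.

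Among the ADAMs, the sheddases Adam17 and Adam15 fell. ADAM17 releases tumour necrosis factor, its receptors and several ligands of the epidermal growth factor receptor from the cell surface. It was at 22.7, 22.7 and 23.0 FPKM in co-culture and at 27.3, 25.9 and 26.2 FPKM alone. The co-culture libraries lay closely together below all alone libraries (log2 change −0.21, SE 0.04, adjusted p = 0.00212, 1.16-fold lower). Adam15, which encodes an integrin-binding sheddase, was at 34.6, 36.2 and 34.7 FPKM in co-culture and at 38.1, 39.4 and 38.3 FPKM alone (log2 change −0.13, SE 0.04, adjusted p = 0.0188). Its call was lost without co-culture replicate 1 (adjusted p = 0.0733), co-culture replicate 3 (0.0705) or alone replicate 2 (0.0683).

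Adam10, whose product cuts Notch receptors and cadherins, was at 56.4, 57.9 and 58.8 FPKM in co-culture and at 52.1, 54.7 and 57.2 FPKM alone. The groups overlapped, and the log2 change of 0.08 (95% interval −0.01 to 0.17, adjusted p = 0.175) was not past the threshold. The difference in response between Adam10 and Adam17 was not tested. Adam9, a widely expressed sheddase gene at 95.1 ± 2.05 FPKM in co-culture and 99.3 ± 1.54 FPKM alone, had no overlap between groups but was not called (adjusted p = 0.182). Adam12 and Adam19, the meltrin genes of muscle and bone, and Adam8, best known from leukocytes, were at 3.07 ± 0.326, 3.82 ± 0.327 and 1.67 ± 0.115 FPKM in co-culture, against 2.71 ± 0.445, 3.91 ± 0.454 and 1.68 ± 0.239 FPKM alone (SD, n = 3 each). Their groups overlapped, with adjusted p of 0.279, 0.829 and 0.999.

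The ADAM with the highest level was not a protease. Adam23 (chromosome 1, 63445717 to 63596111, mm10) lacks a catalytic site, and its product is best known in the nervous system, where it binds LGI proteins. It was at 248, 241 and 243 FPKM in co-culture and at 208, 213 and 220.2 FPKM alone. Every co-culture library was higher, with a log2 change of 0.19 (SE 0.03, adjusted p = 0.00244) and a ratio of means of 1.14. Its relatives Adam11 and Adam22, also without a catalytic site, had 16 and 9 reads over the 6 libraries, so within this subgroup only Adam23 could be tested.

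Adamts1 had the largest log2 change on log2(FPKM + 1), although Mmp3 fell by more as a ratio of means. It encodes a protease that cuts the proteoglycans versican and aggrecan. Its level was 189, 189 and 191 FPKM in co-culture and 264, 272 and 276 FPKM alone. The co-culture libraries agreed within 1.15 FPKM (SD) at 189.6 FPKM, 1.43-fold below the alone mean of 270.5 ± 6.0 FPKM (log2 change −0.51, SE 0.03, adjusted p = 3.28e-06). Adamts1 made up 73.3%, 71.8% and 73.2% of the summed ADAMTS FPKM in co-culture, against 80.7%, 79.0% and 78.9% alone.

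Both other aggrecanases best known from cartilage fell too. Adamts4 was at 2.90, 3.82 and 3.62 FPKM in co-culture and at 4.28, 4.30 and 4.79 FPKM alone (1.29-fold lower, log2 change −0.30, SE 0.08, adjusted p = 0.0167), but its adjusted p was 0.0618 without alone replicate 3. Adamts5 was at 3.03, 3.40 and 3.51 FPKM in co-culture and at 3.95, 4.49 and 4.08 FPKM alone (1.26-fold lower, log2 change −0.26, SE 0.06, adjusted p = 0.0109). Neither gene had overlapping groups. Adamts5 is the neighbour of Adamts1 on chromosome 16 (85858157 to 85901125 and 85793827 to 85803113, mm10), 55.0 kb away with 0 protein-coding RefSeq genes between them.

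Of the 7 measured genes of the proteoglycan-cutting ADAMTS group, 5 were tested, and the 2 not called differed in sign. Adamts9, whose product also cuts versican, was at 9.75, 10.1 and 10.0 FPKM in co-culture and at 10.2, 11.1 and 11.0 FPKM alone (log2 change −0.10, adjusted p = 0.134, but 0.0427 without alone replicate 1). Adamts15, an aggrecanase gene, was at 5.93, 6.56 and 6.22 FPKM in co-culture and at 4.83, 5.61 and 5.79 FPKM alone. Its co-culture values were all higher, but the log2 change of 0.18 was not past the threshold (adjusted p = 0.0619). It did pass on recovered reads (adjusted p = 0.0192), with the replicate number as a block (0.0453) and without alone replicate 3 (0.0473). Summed over the 7 genes, the level was 213 FPKM in co-culture and 295 FPKM alone, which follows mainly from Adamts1.

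The other ADAMTS genes were low and mostly not called. Adamts10, whose product is tied to fibrillin microfibrils, rose, at 3.05, 3.11 and 2.99 FPKM in co-culture against 2.53, 2.46 and 2.68 FPKM alone (log2 change 0.19, SE 0.06, adjusted p = 0.0255). This call was lost without co-culture replicates 1, 2 or 3 (adjusted p of 0.0659, 0.0726 and 0.0560) or without alone replicate 2 (0.0866). The procollagen N-proteinase genes Adamts2 and Adamts14, whose products trim the amino end of fibrillar procollagens, were at 11.3 ± 0.874 and 4.09 ± 0.738 FPKM in co-culture and at 10.7 ± 0.530 and 3.79 ± 0.272 FPKM alone (adjusted p = 0.357 and 0.545). Adamts12 and Adamts7, whose products cut cartilage oligomeric matrix protein, were at 25.6 ± 0.696 and 2.30 ± 0.172 FPKM in co-culture and at 24.3 ± 3.40 and 2.05 ± 0.0466 FPKM alone. Adamts6, a close relative of Adamts10, was at 1.56 ± 0.110 and 1.44 ± 0.0628 FPKM in the same order (adjusted p = 0.485 for Adamts12, 0.203 for Adamts7 and 0.440 for Adamts6). Among these 5, only Adamts7 had groups that did not overlap.

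The 29 genes below 1 FPKM were read as counts of reads. Of these, 11 had at least 30 reads over the 6 libraries, and 18 had fewer, among them the genes of the reproductive tract Adam5, Adam18, Adam20, Adam21 and Adam30. Adam33, a sheddase gene of mesenchymal cells, was at 0.480, 0.529 and 0.507 FPKM in co-culture (72, 101 and 96 reads) and at 0.353, 0.338 and 0.303 FPKM alone (68, 62 and 59 reads). Its groups did not overlap, and in the fit over all 21436 genes it was the only one of the 29 with an adjusted p below 0.05 (log2 change 0.18, adjusted p = 0.0149), where 10.2% of all genes passed. That call was lost at pseudocounts of 0.1 and 0.01 (adjusted p = 0.0867 and 0.0993), on recovered reads (0.0520), with the replicate block (0.0795), and without co-culture replicate 3 (0.0560) or alone replicate 2 (0.0583).

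Adam1a, an ADAM gene of the male germ line, had 42, 53 and 49 reads in co-culture and 25, 30 and 44 reads alone (adjusted p = 0.0793, but 0.0405 without alone replicate 3). Its exons overlap those of Mapkapk5, a gene at 12.0 FPKM, on the same strand. Adam4, also of the male germ line, had 16 reads in co-culture and 39 alone (adjusted p = 0.216), and Adam32 had 101 and 91 (adjusted p = 0.592). Germ cell markers were close to 0 as well, with 88 reads of Zpbp in co-culture and 68 alone, and 31 and 33 of Ddx4 in the same order.

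**Figure D4:**
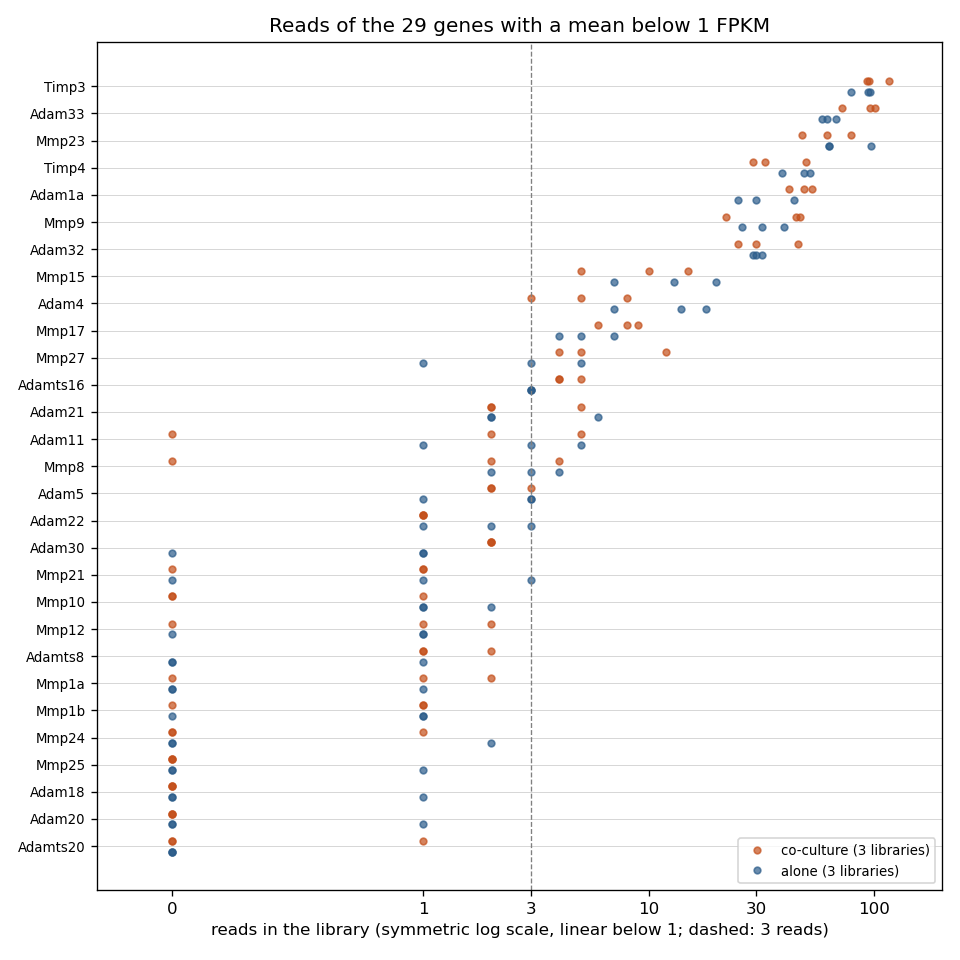
Reads per library of the 29 genes with a mean below 1 FPKM, sorted by total, co-culture above alone for each gene; the axis is a symmetric log scale and the dashed line marks 3 reads. Timp3, Adam33, Mmp23 and Timp4 lead with 573 to 252 reads over the 6 libraries, and Mmp25, Adam18, Adam20 and Adamts20 have 1 read each in all.

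Gelatinase B (Mmp9) and neutrophil collagenase (Mmp8), both typical of neutrophils, were scarce. Mmp9 had 22, 45 and 47 reads in co-culture and 26, 32 and 40 reads alone (adjusted p = 0.578), and Mmp8 had 6 reads in co-culture and 9 alone. Markers of blood cells were low but not absent. The summed level of 8 neutrophil markers was 3.82, 7.66 and 16.8 FPKM in co-culture and 16.8, 15.6 and 27.1 FPKM alone, led by S100a8 and S100a9, and that of 5 erythroid markers was 0, 3.76 and 4.63 FPKM in co-culture and 6.50, 4.65 and 10.3 FPKM alone, led by Hbb-bs and Hba-a1. Of the markers that could be tested, 0 of 2 neutrophil and 2 of 2 erythroid ones were called. Those 2, Hbb-bs and Hba-a1, were lower in co-culture. Their co-culture means of 0.822 and 0.844 FPKM lie below 1, so they passed the filter through the alone libraries (3.64 and 1.98 FPKM). Of the erythroid markers below the filter, Hbb-bt had 60 reads in each group. Hba-a2 had 17 reads in co-culture and 40 alone, and Alas2 had 3 and 11. The part of blood cell RNA in the values of Mmp8, Mmp9 and Adam8 was not tested. The macrophage markers Cd68 and Lyz2 were at 3.71 and 0.411 FPKM in co-culture and at 3.75 and 1.25 FPKM alone, while Ptprc, Adgre1 and Itgam had at most 8 reads in either group, and Pecam1 and Cdh5 of the endothelium had 17 and 4 reads in co-culture and 19 and 3 alone.

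Among the remaining low MMPs, Mmp23 had 189 reads in co-culture and 223 alone (adjusted p = 0.756), the membrane-type genes Mmp15 and Mmp17 had 30 and 23 in co-culture and 40 and 16 alone (adjusted p = 0.710 and 0.337), and Mmp27 had 21 and 9 (adjusted p = 0.403). The other membrane-type genes Mmp24 and Mmp25 had 3 and 1 reads over all libraries. In a library, 0 reads leaves room for up to 3, and these limits cover counting error only.

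Genes around the proteases were taken from lists of regulators, the plasminogen system, related proteins and substrates. Of 10 tested regulators of MMPs and ADAMs, 1 rose and 0 fell, with a median log2 change of −0.01, beside 31.8% of all tested genes called. The exception was Tspan17, a tetraspanin that accompanies ADAM10, at 27.7 ± 1.17 FPKM in co-culture and 25.3 ± 0.711 FPKM alone (adjusted p = 0.0403), and it was not called under 10 of 15 alternatives (adjusted p of 0.0555 to 0.138 there, with 0.138 and 0.130 without co-culture replicates 1 and 3, and 0.0700 and 0.129 without alone replicates 2 and 3). Reck, a membrane-anchored MMP inhibitor, was at 4.69 ± 0.202 FPKM in co-culture and 4.50 ± 0.187 FPKM alone (adjusted p = 0.505). Furin, the convertase that activates MMP14 and the ADAMs, was at 35.7 ± 0.870 and 36.4 ± 1.05 FPKM (adjusted p = 0.648), and Bsg, the MMP inducer basigin, at 305 ± 6.94 and 302 ± 16.3 FPKM in the same order (adjusted p = 0.839). Among these regulators, 1 was called lower without co-culture replicate 1 and 1 without alone replicate 1.

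In the plasminogen system, whose protease plasmin can activate MMP precursors, 3 of 8 tested genes rose (Plat, Plaur and S100a10) and 3 fell, with a median log2 change of 0.16, beside 13.9% higher and 17.9% lower among all tested genes. Serpine2, which encodes protease nexin 1, a serpin that blocks thrombin and other serine proteases, was at 11.4 ± 0.174 FPKM in co-culture and 13.2 ± 0.418 FPKM alone (log2 change −0.20, adjusted p = 0.00590). Tissue plasminogen activator, Plat, was at 27.5 ± 0.913 FPKM in co-culture and 23.9 ± 0.603 FPKM alone (0.20, adjusted p = 0.00393), and the urokinase receptor gene Plaur at 4.46 ± 0.259 and 3.67 ± 0.348 FPKM (0.23, adjusted p = 0.0243). Serpine2 thus fell, while Plat and Plaur rose. Urokinase itself, Plau, was at 3.71 ± 0.844 FPKM in co-culture and 3.08 ± 0.242 FPKM alone and was not called (adjusted p = 0.199), except without co-culture replicate 1 (0.0249). The 3 lower genes numbered 2 when any library other than alone replicate 3 was left out. The 3 higher genes numbered 1 without co-culture replicate 2, co-culture replicate 3 or alone replicate 3, and the call on Plaur was also lost without alone replicate 1 (adjusted p = 0.0682), while it was 0.0877, 0.0521 and 0.0675 in those 3 cases.

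Among the proteins related to ADAMTS enzymes and the astacin proteases, 3 genes could be tested and 2 rose (median log2 change 0.24), beside 13.9% of all tested genes. Adamtsl4, which has no protease domain, was at 5.37 ± 0.497 FPKM in co-culture and 3.86 ± 0.342 FPKM alone (log2 change 0.39, adjusted p = 0.00256). Bmp1, the procollagen C-proteinase, was at 54.0 ± 3.03 FPKM in co-culture and 45.4 ± 1.17 FPKM alone (0.24, adjusted p = 0.00231).

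Of 17 tested matrix substrates, 0 rose and 6 fell, beside 13.9% and 17.9% of all tested genes, and the median log2 change was −0.03. Osteopontin, Spp1, had the smallest p, at 368 ± 6.87 FPKM in co-culture and 559.7 ± 37.6 FPKM alone (log2 change −0.60, adjusted p = 1.15e-05), followed by Lamb1 (−0.25, adjusted p = 6.32e-04), Dcn (−0.30, adjusted p = 0.00162) and Col3a1 (−0.16, adjusted p = 0.00601). Versican, Vcan, the proteoglycan that ADAMTS1, ADAMTS4 and ADAMTS5 cut, was at 227 FPKM in co-culture and 232 FPKM alone (adjusted p = 0.738), and Acan had 1 read in all. Without alone replicate 1, 2 of these substrates were called higher and 9 lower. Comp lay below the filter with a mean of 0.85 FPKM, at 1.09 ± 0.0838 FPKM in co-culture and 0.612 ± 0.104 FPKM alone. In the fit without a filter it was called higher (adjusted p = 0.0207), and 4 matrix substrates were called lower.

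Of 20 tested membrane substrates of ADAM10 and ADAM17, 3 rose and 9 fell, beside 13.9% and 17.9% of all tested genes, with a median log2 change of −0.09. The EGF family ligand gene Ereg was at 9.07 ± 0.838 FPKM in co-culture and 27.9 ± 1.63 FPKM alone (log2 change −1.52, adjusted p = 1.43e-07), Jag1 at 3.35 ± 0.191 and 5.62 ± 0.358 FPKM (−0.61, adjusted p = 5.03e-05) and Cd44 at 28.2 ± 0.804 and 33.9 ± 0.758 FPKM (−0.26, adjusted p = 6.79e-04). Vcam1 rose, at 112 ± 2.37 FPKM in co-culture and 98.7 ± 0.775 FPKM alone (0.19, adjusted p = 0.00184).

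Exons of 10 of the 28 tested members, and of 5 of the 13 called, overlap an exon of another gene on the opposite strand in GENCODE M21. The called ones are Adam15, Adam17 (Iah1, 311 bases), Adamts4, Mmp19 (Tmem198b, 789 bases) and Mmp28 (1700020L24Rik, 466 bases). The sources used here do not give whether counting used strand. Without it, reads of such pairs cannot be told apart. Mmp1a and Mmp1b are near copies of each other, so how their few reads divide between them is uncertain.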

How the data were processed

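RNA sequencing libraries of 3 co-culture and 3 alone samples were compared. Per the submitters' processing notes, fastp, HISAT2 and HTSeq were used with mm10, and the authors deposited FPKM per gene. Not given in the sources used here are versions, annotation, use of strand and the treatment of human reads. Each value column was matched to a sample by its name, with 0 left over. Per the labels' protocols, TRIzol served for RNA extraction and a VAHTS kit for the libraries.

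From the deposited FPKM, library totals were recovered as exact fractions of the steps between libraries. All 21436 genes then came out as whole reads (tolerance 1e-04 reads), as the smallest whole numbers that fit. A gene whose read numbers share a factor is therefore understated, as may hold for Timp2. By these recovered reads the listed genes held 98.6% to 98.7% of the totals, which is a lower bound where genes are understated. Without molecular identifiers, which the labels do not mention, reads cannot be taken as independent molecules.

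Co-culture minus alone was fitted on log2(FPKM + 1) with limma 3.58.1 (lmFit and a trended eBayes, R 4.3.3). The fit took all 10055 genes averaging 1 FPKM or more, with Benjamini-Hochberg adjustment and a threshold of 0.05. This scale understates the change of low genes. In a test on simulated reads of these 10055 genes, it called 61.2% of the genes changed 1.25-fold, 88.1% at 1.5-fold and 95.5% at 2-fold, and 5.78% of its 173 calls were unchanged genes. That test changed 67, 67 and 66 genes at these folds, where 3201 genes were called in the data. Its rates therefore need not hold for the data. Ratios are of mean FPKM. Named were all tested members, those below the filter with at least 30 reads, up to 4 called genes of each list by smallest p, Reck, Plau, Furin and Bsg, and the 2 highest markers of each cell type. Others are examples chosen after their values were seen: Mmp8, Adam5, Adam11, Adam18, Adam20, Adam21, Adam22, Adam30, Vcan, Acan, Comp and the scarce markers. Some results are not reported here. Members and lists were chosen with earlier results of these data known. RefSeq on GRCm38.p6, the assembly of mm10, gave coordinates and promoter starts. No pair of libraries looked like copies of 1 library.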

Additional observations from a re-analysis of the deposited data

How the results depend on the processing

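Tried in place of the settings used were a pseudocount of 0.1 or 0.01, testing every gene, a filter at 5 FPKM, median-ratio or TPM scaling, no trend, the replicate number as a block, limma-voom on the recovered reads, and each library left out in turn. Over the 13 called members and these 15 alternatives, 168 of 190 results kept their call, 22 were not called and 0 changed sign, and 6 members (Timp2, Mmp3, Mmp19, Adam17, Adam23 and Adamts1) were called wherever they had a value. The members called higher numbered 6 and lower 7 with the replicate block, as without it, and 3 to 6 and 6 to 8 with a library left out. The correlations of deviations between libraries of equal replicate number were −0.0444, 0.109 and −0.0829, and those of the other pairs ran from −0.123 to 0.171. With 3 libraries a group, these values cannot show whether the libraries were paired, and the labels do not state it. The block changed the calls of Mmp2, Adamts15, Adam33 and Tspan17, and plasminogen genes called lower numbered 2 with it. With no filter the lower members numbered 4, as Mmp28, Adamts4 and Adamts5 had adjusted p of 0.0557, 0.110 and 0.0639, and the higher ones 4, as Mmp2, Mmp14 and Adamts10 were at 0.121, 0.0883 and 0.0663, while Adam33 was called. With a filter at 5 FPKM the lower members numbered 4, because Mmp3, Adamts4 and Adamts5 were not tested. Mmp3 was also not tested without alone replicate 3. The median log2 change of the members was 0.0017 with no filter, where all 57 entered, and −0.0086 to 0.0838 with a library left out. Of the lists, the 1 higher regulator numbered 0 with no filter, median-ratio scaling, TPM scaling, no trend, the replicate block and limma-voom, and 0 to 1 with a library left out. Regulators called lower numbered 1 with a filter at 5 FPKM, with median-ratio scaling and with no trend, 2 with limma-voom, and 0 to 1 with a library left out. Plasminogen genes called higher numbered 1 with no filter and 1 to 3 with a library left out. ADAMTS-like and astacin genes called higher numbered 1 at the filter of 5 FPKM. Matrix substrates called higher numbered 1 with no filter (Comp) and 0 to 2 with a library left out. The log2 change of Adam8 was −0.0050 with median-ratio scaling, −0.0036 with TPM scaling, −0.0011 with limma-voom and −0.0609 to 0.0668 with a library left out. Other uncalled genes turned sign only with a library left out, with ranges of −0.153 to 0.0107 for Mmp13, −0.0388 to 0.0913 for Mmp11, −0.1043 to 0.0190 for Adam19, −0.0349 to 0.1608 for Adamts14, −0.0360 to 0.1521 for Adamts12, −0.0301 to 0.0461 for Bsg, −0.0477 to 0.0037 for Mmp15 and −0.1073 to 0.0317 for Mmp23. For all of these the cause was not tested. With 3 libraries a group, calls on changes near 1.1-fold, such as those of Mmp2 and Adam15, were lost under several settings. Changes below 1.25-fold were not simulated, and below 30 reads no change could be read.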
